A study of Homo sapiens with 8 samples.

Results

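The 38 genes described here encode proteins of G2 phase and mitosis. They were taken from a list of G2 and M phase genes, with the transcription factor gene FOXM1 left out of it. Whether the RNA of each gene peaks in these phases was not examined here. The list names the cyclins CCNA2, CCNB1 and CCNB2, the kinase CDK1 and the phosphatases CDC25B and CDC25C that activate it. It also holds the mitotic kinases PLK1, AURKA, AURKB and NEK2 with the chromosomal passenger subunit BIRC5, and the spindle checkpoint and anaphase-promoting complex genes BUB1, BUB1B, BUB3, TTK, CDC20 and UBE2C. CENPA, CENPE, CENPF, NUF2 and NDC80 stand for the centromere and kinetochore. KIF11, KIF4A, TPX2, HMMR, CKAP5, NUSAP1 and CEP170 stand for the spindle and its poles. KIF14, KIF20A, KIF23, PRC1, ECT2, ANLN and CEP55 act in the central spindle and cytokinesis, and TOP2A and MKI67 are proteins of mitotic chromosomes. All 38 were found among 21608 genes with an annotated splice junction in the data, and all 38 were among the 13487 genes that passed the filter on low counts.

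The cells were HEK293, an established human embryonic kidney line. They had been treated with 25 nM LMI070, also named branaplam, a drug-like compound that changes which exons are spliced into mRNA, or with its solvent DMSO. Each group had 4 libraries, made from total RNA that had been depleted of ribosomal RNA. DMSO replicates 9 and 10 and LMI070 replicates 14 and 15 were run in sequencing lane 8, and DMSO replicates 11 and 12 and LMI070 replicates 13 and 16 in lane 7. The labels give each lane a run code of its own, so lane and sequencing run cannot be told apart, and both lanes held 2 libraries of each group. The labels do not say whether libraries came from separate cultures, so each p measures the spread between these libraries, which may be technical. The length of treatment is not given in the sources used here.

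The values are reads that cross splice junctions. Uniquely mapped junction reads numbered 20369466 to 36131054 per library, and the 38 genes took 1.04% to 1.13% of the reads assigned to genes. Levels are counts per 1000000 reads (CPM), scaled for library composition with edgeR's TMM factors. All 8 genes of the HEK293 identity list passed the filter on low counts. None of the 6 blood and 5 hepatocyte markers passed it, and their summed levels were at most 0.783 and 0.208 CPM in any library. Of 6 fibroblast and 6 epithelial markers, 2 and 4 passed the filter, and none of them was called by treatment. Each library was also set against the mean of the other libraries of its own group. Over the 38 genes DMSO replicate 12 had the largest root mean square deviation, 0.116 on the log2 scale against 0.0547 to 0.0905 for the other libraries. Over all genes, LMI070 replicate 16 and DMSO replicate 12 had the largest such deviations, at 0.214 and 0.205.

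Entry into mitosis is driven by CDK1 bound to A- and B-type cyclins. CDC25 phosphatases remove the phosphates that hold CDK1 inactive, and PLK1 and the Aurora kinases then organise centrosomes, spindle and chromosomes. The spindle checkpoint holds the anaphase-promoting complex in check until every kinetochore is attached to microtubules. Most of these genes are repressed in resting cells and switched on in G2 through a promoter element called the cell cycle genes homology region (CHR), often beside CCAAT boxes. Proteins of the MuvB complex bind the CHR, together with MYBL2 and FOXM1 when the genes are active. RNA from unsorted cells cannot tell fewer cells in G2 and mitosis from less of these RNAs in each cell.

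The RefSeq promoter table (GRCh38.p14) had 41 entries for 32 of the 38 genes. AURKA, BIRC5, BUB3, TPX2, TTK and UBE2C were the other 6. Each entry spans 300 bases, 250 before the start site and 50 after it. The letters TTTGAA or TTCGAA, forms of the CHR, were searched on both strands. They stood in 28 of the 41 entries, or 68.3%, against 16.4% of all 35116 entries in the table. The letters CCAAT stood in 73.2% of the entries against 34.6% of all. Both kinds of match stood together in 56.1% against 6.38%. The windows of the 4 genes whose response to LMI070 was unequal between lanes, described in the next paragraphs, are shown because their levels did not move in 1 direction. All 4 have a CHR match, as do 25 of the 32 genes with an entry, so a match does not set them apart. For CDC25B the match stands in 1 of its 4 entries, the one shown. The MKI67 window covers the 120 bases before its start (chr10:128126424-128126543, minus strand), with CHR and CCAAT matches in capitals. The CCAAT match nearest to the start overlaps the CHR match beside it.
MKI67: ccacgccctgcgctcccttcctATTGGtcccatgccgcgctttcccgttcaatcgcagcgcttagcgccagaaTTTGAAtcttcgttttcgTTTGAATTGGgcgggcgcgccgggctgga
For the other 3, 30 bases around the CHR match are shown with the match in capitals: PLK1 at chr16:23678848-23678877, CDK1 at chr10:60778453-60778482 and CDC25B at chr20:3796260-3796289, all on the plus strand.
PLK1: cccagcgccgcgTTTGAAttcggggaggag
CDK1: tagcgcggtgagTTTGAAactgctcgcact
CDC25B: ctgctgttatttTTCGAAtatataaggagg
PLK1, CDK1 and MKI67 share the form TTTGAA at these positions, and CDC25B has TTCGAA, a form found in 1.45% of all entries. A CEP170 entry was in the table and held neither motif. A match is a description of these letters and no measurement of binding.

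The first comparison asked which of the 38 genes changed with LMI070 when lane was a term of the model. CEP170, which encodes a centrosomal protein of the mother centriole, fell and was the only gene to pass. Of all genes, 0.133% passed this test and 0.111% passed it as lower, at an adjusted p under 0.05 by edgeR's quasi-likelihood F test with Benjamini-Hochberg adjustment over all genes. CEP170 stood at 103, 103, 111 and 117 CPM in DMSO replicates 9, 10, 11 and 12, and at 94.1, 92.2, 88.0 and 94.4 CPM in LMI070 replicates 13, 14, 15 and 16. All 4 LMI070 libraries lay below all 4 DMSO libraries, with means of 92.2 ± 2.96 and 109 ± 7.08 CPM (SD, n = 4 per group). The log2 fold change was -0.23 with a standard error of 0.045, and the adjusted p by edgeR was 0.0349. The difference was present within each lane, at -0.27 in lane 7 and -0.19 in lane 8, with adjusted p by edgeR of 0.0272 and 0.0193 in fits of each lane alone.

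The CEP170 call was close to the threshold. With any 1 of the 8 libraries left out, the log2 fold change stayed between -0.26 and -0.21 and the adjusted p by edgeR was 0.0533 to 0.225, so the call was lost in each of the 8 fits. CEP170 had the largest share of multiply mapped reads of the 38 genes, 15.3% against 5.64% for NUSAP1, the next in order. With these reads counted its log2 fold change was still -0.23, at an adjusted p by edgeR of 0.0574.

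The other 37 genes did not pass the test of treatment. Over all 38 the median log2 fold change was -0.040, with 12 above 0, against a median of 0.0036 over all genes, of which 48.6% lay below 0. At an unadjusted p under 0.05, 6 of the 38 passed, or 15.8%, against 10.3% of all genes. AURKB, the kinase of the chromosomal passenger complex, was the only gene with all LMI070 libraries above all DMSO libraries (188 to 200 CPM in DMSO, 201 to 217 in LMI070), a pattern seen in 1.81% of all genes. NDC80, a subunit of the complex that ties kinetochores to microtubules, joined CEP170 with all LMI070 libraries below (107 to 117 CPM in DMSO, 98.2 to 105 in LMI070), a pattern seen in 2.32% of all genes. Their log2 fold changes were 0.07 and -0.10, with adjusted p by edgeR of 0.546 and 0.484. The map of values by library shows how narrow most of these differences were.

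**Figure D1:**
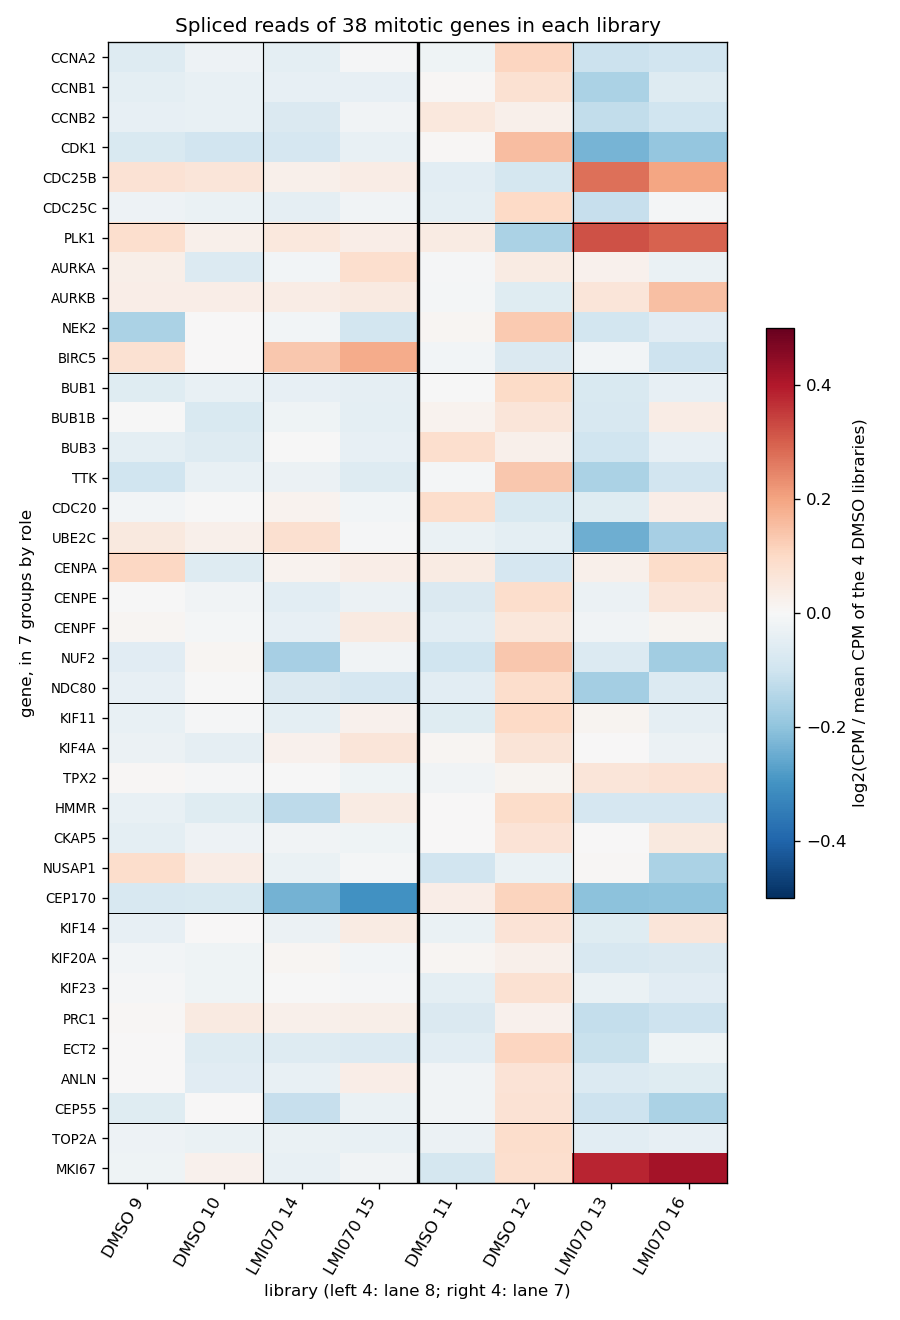
Colour gives the log2 ratio of each library's CPM to the mean of the 4 DMSO libraries, for 38 genes (grouped by role between thin horizontal lines) in 8 libraries (lane 8 left of the thick line, lane 7 right of it). CEP170 is blue in all 4 LMI070 libraries, while the darkest red of MKI67, PLK1 and CDC25B lies in LMI070 replicates 13 and 16 of lane 7.

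The second comparison asked which genes follow the lane. By the rule used, a gene follows the lane where the lane difference passes the test and the treatment difference does not. None of the 38 genes passed the test of lane (0 by edgeR, 4 at an unadjusted p under 0.05, 1 by DESeq2), so none followed the lane by edgeR. Of all genes 1.26% passed the test of lane, and 15.2% had an unadjusted lane p under 0.05, against 10.5% of the 38. The 4 genes with an unadjusted lane p under 0.05 were UBE2C, MKI67, BIRC5 and CEP170. Of these, MKI67 and CEP170 also had an unadjusted treatment p under 0.05. Only UBE2C and BIRC5 thus met the rule without adjustment. For CEP170 the lane difference was 0.11 on the log2 scale, with an adjusted lane p by edgeR of 0.253. By this rule CEP170 followed the drug, no gene followed the lane, and 37 followed neither. The rule leaves out whether the treatment difference was equal in both lanes, which the third comparison asks.

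UBE2C, the ubiquitin-conjugating enzyme that works with the anaphase-promoting complex, was nearest to a lane call. It stood at 243, 239, 247 and 233 CPM in lane 8 (DMSO replicates 9 and 10, then LMI070 replicates 14 and 15) and at 229, 227, 198 and 209 CPM in lane 7 (DMSO replicates 11 and 12, then LMI070 replicates 13 and 16). All 4 libraries of lane 7 lay below all 4 of lane 8, whichever treatment they had. Its lane difference was -0.16 on the log2 scale with an adjusted p of 0.0732 by edgeR, and DESeq2 gave 0.0431. BIRC5 also lay lower in every library of lane 7, at 117 to 125 CPM against 126 to 143 CPM in lane 8, with an adjusted lane p by edgeR of 0.114. CKAP5, a microtubule polymerase, lay higher in every library of lane 7, at 1069 to 1121 CPM against 1031 to 1056 CPM. Its adjusted lane p by edgeR was 0.430. The largest lane difference of the list was that of MKI67, at 0.21 on the log2 scale, with an adjusted lane p by edgeR of 0.107. Its libraries overlapped between lanes. The MKI67 mean in DMSO was 150 CPM in either lane, while in LMI070 it was 197 CPM in lane 7 and 147 CPM in lane 8.

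The third comparison asked whether the difference between LMI070 and DMSO was the same in each lane. It was not for 4 of the 38 genes, or 10.5%, against 2.85% of all genes, by edgeR's test of the interaction of treatment and lane at an adjusted p under 0.05. These were MKI67, PLK1 and CDC25B, higher with LMI070 in lane 7, and CDK1, lower with LMI070 in lane 7. In lane 8 their log2 fold changes lay between -0.035 and 0.025. They were singled out after their values were seen.

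MKI67, the gene of the proliferation marker Ki-67 that coats mitotic chromosomes, stood at 147 and 152 CPM in DMSO and 146 and 148 CPM in LMI070 in lane 8. In lane 7 it stood at 141 and 159 CPM in DMSO and 195 and 199.99 CPM in LMI070. Both LMI070 libraries of lane 7 thus lay above every other library, and the other 6 overlapped. The difference between lanes in the treatment effect was 0.42 on the log2 scale (standard error 0.079, adjusted p by edgeR 0.0020). It was called in all 8 fits that left out 1 library, with an adjusted p by edgeR of at most 0.0371. Each of these fits has 1 library alone in its lane and treatment, and assumes that this library varies like the others.

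PLK1, the kinase that drives centrosome maturation and mitotic entry, stood at 130.1 and 125 CPM in DMSO and 127 and 126 CPM in LMI070 in lane 8. In lane 7 it stood at 126 and 110.0 CPM in DMSO and 153 and 151 CPM in LMI070. Again both LMI070 libraries of lane 7 were the highest of the 8, and DMSO replicate 12 was the lowest. The interaction was 0.37 (standard error 0.084, adjusted p by edgeR 0.0116).

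CDC25B, a phosphatase that activates CDK1 at the start of mitosis, stood at 75.3 and 74.7 CPM in DMSO and 72.9 and 73.5 CPM in LMI070 in lane 8. The lane 7 values were 69.1 and 67.5 CPM in DMSO and 86.8 and 82.2 CPM in LMI070. The LMI070 libraries were thus above DMSO in lane 7 and just below it in lane 8. The interaction was 0.34 (standard error 0.087, adjusted p by edgeR 0.0266).

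CDK1 itself stood at 279 and 275 CPM in DMSO and 277 and 287 CPM in LMI070 in lane 8. In lane 7 it stood at 295 and 327 CPM in DMSO and 250.2 and 257 CPM in LMI070. Both LMI070 libraries of lane 7 were the lowest of the 8 and both DMSO libraries of lane 7 the highest. The interaction was -0.32 (standard error 0.071, adjusted p by edgeR 0.0093). So the kinase gene was lower in the same 2 libraries in which its phosphatase gene CDC25B was higher.

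The calls of PLK1, CDC25B and CDK1 were not kept in every fit that left out 1 library, though the values kept their direction. Of the 8 fits that left out 1 library, 3 called PLK1, 3 called CDC25B and 4 called CDK1, with log2 values of 0.28 to 0.48, 0.30 to 0.38 and -0.39 to -0.25. The share of unannotated junction reads over all genes also differed by lane among LMI070 libraries. It was 0.927% and 0.935% in replicates 13 and 16 of lane 7, 0.907% and 0.905% in replicates 14 and 15 of lane 8, and 0.888% to 0.895% in DMSO. Its part in the differences of the 4 genes was not tested.

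**Figure D2:**
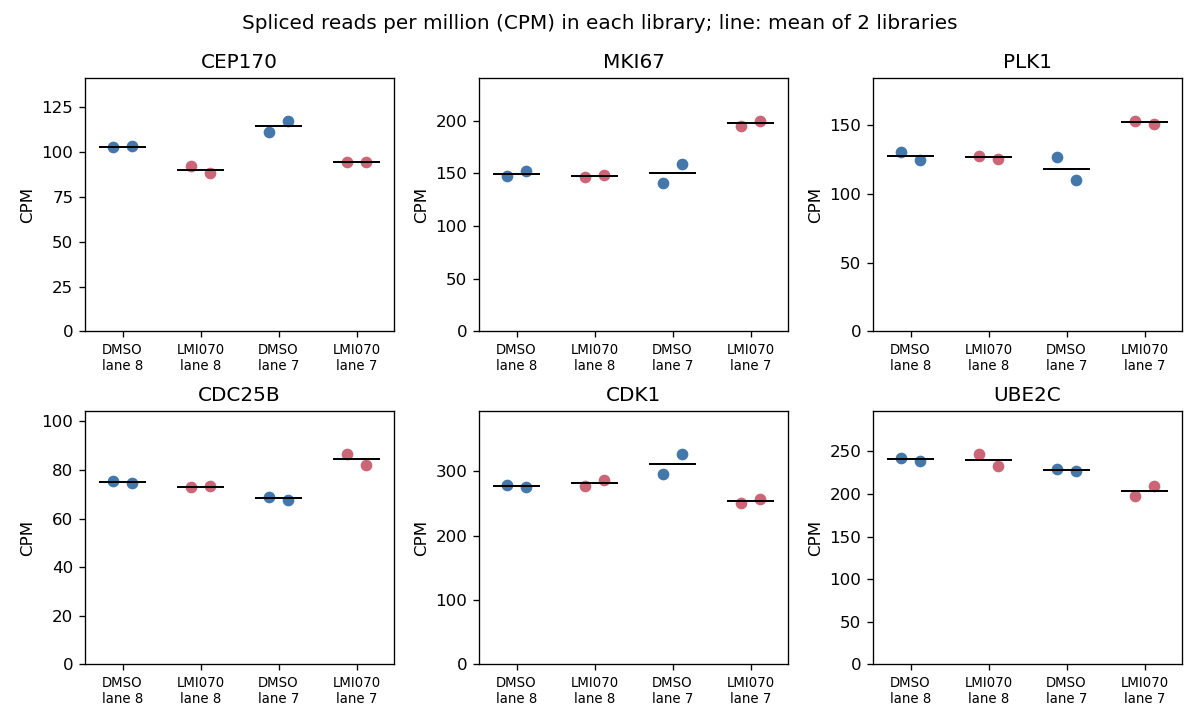
CPM of CEP170, MKI67, PLK1, CDC25B, CDK1 and UBE2C on a linear axis from 0, with 1 point per library, DMSO in blue and LMI070 in red, and a line at the mean of the 2 libraries of each lane and treatment. MKI67 in lane 7 has means of 150 CPM in DMSO and 197 CPM in LMI070, while in lane 8 they are 150 and 147 CPM; CEP170 is lower with LMI070 in both lanes.

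Fits of each lane alone, with 2 libraries a group, reused the libraries of the interaction test, so they are no separate evidence for the 4 genes. In lane 7 alone 5 of the 38 genes passed, or 13.2%, against 4.12% of all genes. MKI67, PLK1 and CDC25B were higher by 0.40, 0.36 and 0.31 on the log2 scale, and CDK1 and CEP170 were lower, at -0.29 and -0.27. In lane 8 alone CEP170 was the only one of the 38 to pass, against 0.375% of all genes. DMSO and LMI070 libraries did not overlap for 23 of the 38 genes in lane 7 and for 12 in lane 8, or 60.5% and 31.6%, against 47.6% and 35.5% of all genes.

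Differences were wider in lane 7 for most genes of the list and for most genes overall. The absolute log2 difference was larger in lane 7 than in lane 8 for 30 of the 38 genes, or 78.9%, against 68.4% of all genes. Its median over the 38 was 0.093 in lane 7 and 0.018 in lane 8, against 0.125 and 0.060 over all genes. Of the 38 genes, 31 had a log2 fold change below 0 in lane 7, or 81.6%, against 49.2% of all genes. In lane 8 it was below 0 for 14, or 36.8%, against 49.5% of all genes. DMSO replicate 12, one of the controls of lane 7, was the highest of the 4 DMSO libraries for 27 of the 38 genes (71.1%, against 32.1% of all genes), as for TTK, a checkpoint kinase (286, 299, 304 and 336 CPM in replicates 9 to 12). Its part in the lower values of lane 7 was not tested; without DMSO replicate 12 the interaction was called for 5 of the 38 genes, the same 4 and BUB3, and for 4.05% of all genes.

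**Figure D3:**
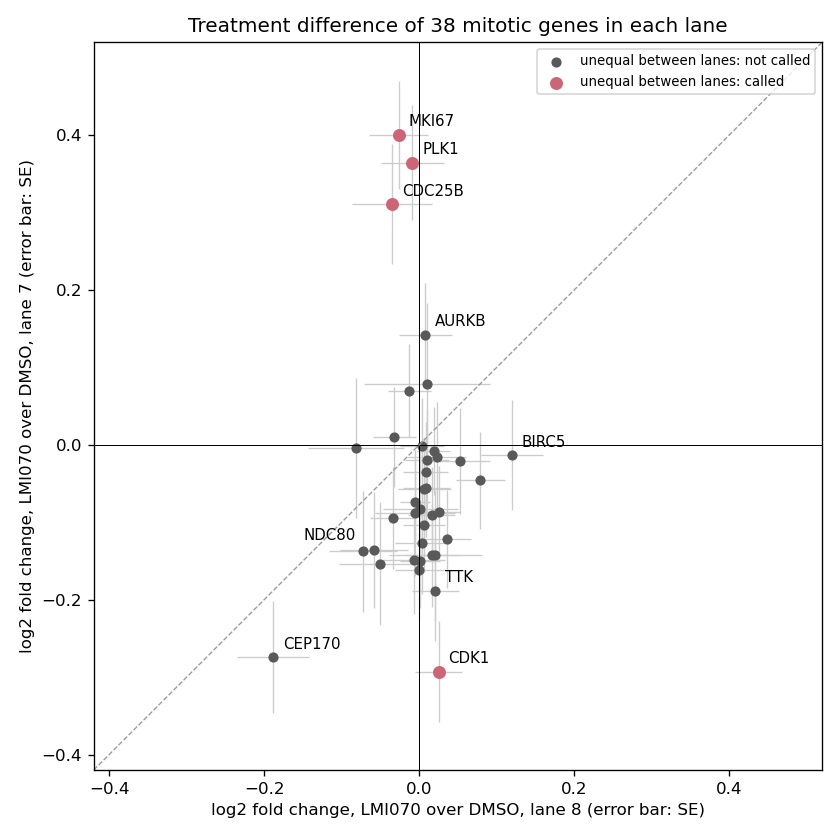
Log2 fold change of LMI070 over DMSO for 38 genes in lane 8 (horizontal) against lane 7 (vertical), each with its standard error as a bar and with the line of equality dashed. The 4 genes in red, MKI67, PLK1, CDC25B and CDK1, lie far from 0 in lane 7 only, and CEP170 lies below 0 in both lanes.

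By role, the cyclin, CDK1 and CDC25 group had a median log2 fold change of -0.070 over its 6 genes. It was -0.15 in lane 7 and -0.0021 in lane 8. CCNB1, cyclin B1, stood at 521, 524, 523 and 523 CPM in the lane 8 libraries. In lane 7 it stood at 540.2 and 568 CPM in DMSO and 482 and 514 CPM in LMI070, and its interaction had an adjusted p by edgeR of 0.217. The 4 genes of this group other than CDC25B and CDK1 passed no gene test.

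The mitotic kinases with BIRC5 had a median of 0.052, with 4 of 5 genes above 0. PLK1 was the only one with an unequal response between lanes. AURKA, the Aurora kinase of spindle poles, had a log2 fold change of 0.015, and NEK2, a kinase of centrosome separation, of -0.063. The 6 spindle checkpoint and anaphase-promoting complex genes were all below 0, with a median of -0.048, and none passed. BUB1 and BUB1B were at -0.050 and -0.028, and CDC20, the activator of the anaphase-promoting complex, at -0.0064.

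The 5 centromere and kinetochore genes had a median of -0.012. CENPF, a protein of the outer kinetochore, had the smallest treatment difference of the 38, with 357 ± 11.3 CPM in DMSO and 357 ± 9.42 in LMI070 (SD, n = 4 per group). The 7 spindle genes had a median of -0.014, and CEP170 was the only one to pass. The 7 central spindle and cytokinesis genes had a median of -0.039, with 6 of 7 below 0 and none called. Of the pair on chromosomes, TOP2A, the DNA topoisomerase that untangles sister chromatids, stood at 1921 ± 78.8 CPM in DMSO and 1867 ± 10.4 in LMI070 (SD, n = 4 per group) and did not pass, while MKI67 differed by lane as given above.

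In NUSAP1, a spindle protein, and PRC1, the bundler of the central spindle, most junction reads lay on introns that also belong to a readthrough or overlapping gene in the annotation, AC087721.2 and AC068831.7. Their own introns held 8666 and 15508 reads, and the shared ones 28120 and 80208. With the shared introns counted, the log2 fold changes of NUSAP1 and PRC1 were -0.021 and -0.038, with adjusted p by edgeR of 0.891 and 0.750. For BUB1B the shared intron held 2095 reads and the value was -0.029.

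Levels of different genes were compared per junction, as the median CPM over the introns of 1 transcript of each gene. This was the transcript with the most reads per intron, among those with at least the gene's median number of introns. It can cover few introns: for TOP2A it had 3, while 36 annotated introns of the gene had reads. CCNB1 was the highest, at 65.3 ± 2.66 CPM per junction (SD over 8 libraries), followed by TOP2A at 59.0 ± 2.70 and UBE2C at 46.5 ± 2.43. The lowest were CDC25C at 5.41 ± 0.214, KIF14, a kinesin of cytokinesis, at 5.14 ± 0.304 and CDC25B at 5.09 ± 0.412. The last 3 differed by less than the sum of their spreads.

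The wider lists of cell cycle genes, from regulators of these promoters to genes of G1 and S phase, were examined in the same way. Every gene on them passed the filter on low counts, and none passed the test of treatment. FOXM1 and MYBL2, the transcription factors of these promoters, were among 11 regulators listed, and both had an unequal response between lanes, with interactions of 0.34 and 0.35 (adjusted p by edgeR 0.0200 and 0.0029). FOXM1 stood at 86.6 and 85.4 CPM in DMSO and 81.6 and 86.4 CPM in LMI070 in lane 8, and at 82.3 and 81.1 CPM in DMSO and 103 and 99.6 CPM in LMI070 in lane 7. As for MKI67, PLK1 and CDC25B, only the LMI070 libraries of lane 7 stood above the others. MYBL2 was higher by 0.35 on the log2 scale in lane 7 and was at -0.0037 in lane 8.

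Further interaction calls were INCENP (0.37), the scaffold of the chromosomal passenger complex, among 16 checkpoint and kinetochore partners, and KIF18B (0.46), a kinesin of astral microtubules, among 14 other kinesins and spindle proteins. Of 18 genes of G1 and S phase, MCM6 (0.24), a helicase subunit, and TYMS (1.00), the thymidylate synthase gene, were called. None of the 16 subunits and partners of the anaphase-promoting complex, the 8 condensin subunits and the 8 inhibitory kinases and CDK inhibitors had an interaction call. Of all genes 2.85% had an interaction call. These lists, and that of the 11 regulators, hold 8 to 18 genes each, so a call or 2 in a list gives no firm share. CDKN3, a phosphatase that acts on CDK2, was the only gene of these lists called by lane, at -0.19 with an adjusted p by edgeR of 0.0462.

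LMI070 changes exon choice, so the exons of the 38 genes were examined next. In 29 of the genes 137 exons could be tested, each with 2 inclusion junctions and a junction that skips it: 93 with both inclusion junctions annotated, 30 with 1 annotated and 14 with neither. Inclusion is the mean of the 2 inclusion junctions as a percent of that mean plus the skipping reads, with the mean rounded to whole reads. None of the 137 passed at an adjusted p under 0.05 (0 by edgeR, 8 at an unadjusted p under 0.05, 0 by DESeq2 with 2 unadjusted), against 0.359% of all 28680 exons tested. The 8 are 5.84% of the 137, beside 5.11% of all exons at an unadjusted p under 0.05. Forms of an exon with the same 3′ splice site and different 5′ splice sites were tested apart and can share junction reads. The 137 are thus not all separate exons, and the 8 include several forms of 1 AURKB exon.

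The exon nearest to a call lay in BUB1, a checkpoint kinase gene, and is absent from the annotation. It is 85 nt long (chr2:110638985-110639069) and its length is no multiple of 3. DMSO libraries had no read on either of its junctions and 1128 reads over the skipping junction. A count of 0 there allows inclusion of up to 0.133%, for counting error alone. In LMI070 it stood at 0.885%, 1.13%, 1.40% and 0.858% in replicates 13, 14, 15 and 16, from 8 and 12 reads of its 2 junctions. Each LMI070 library had reads on 1 of these junctions, at 3, 3, 2 and 4 in replicates 13 to 16, and no DMSO library did. At counts this small the rounding to whole reads matters. Inclusion in LMI070 had a mean of 1.07% ± 0.251 (SD, n = 4), at an adjusted p by edgeR of 0.0704. The bases of this exon are not printed, since no sequence that covers it was used here.

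In CENPA, the histone H3 variant that marks centromeres, the 78-nt coding exon at chr2:26792756-26792833 went from 89.9% ± 3.65 to 95.4% ± 0.807 (SD, n = 4 per group). DMSO libraries stood at 87.6%, 93.8%, 92.1% and 86.1% and LMI070 libraries at 94.2%, 95.7%, 95.6% and 96.0%. The groups did not overlap, and the adjusted p by edgeR was 0.208. The share of all exons without overlap was not counted. The difference was 5.96 points in lane 7 and 4.90 in lane 8.

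CEP170, the only gene called lower, had a 115-nt exon at chr1:243176702-243176816 (minus strand). The annotation holds this exon only in a transcript marked for nonsense-mediated decay, a pathway that destroys RNAs with an early stop codon, and its stop codon lies in this exon. Inclusion was 1.09%, 1.02%, 3.51% and 1.00% in DMSO replicates 9 to 12 and 4.96%, 4.82%, 3.45% and 5.15% in LMI070 replicates 13 to 16. LMI070 replicate 15 lay just below DMSO replicate 11, so the groups overlapped. The means were 1.65% ± 1.24 and 4.60% ± 0.777 (SD, n = 4 per group), the 2 junctions had 24 and 19 reads in all, and the adjusted p by edgeR was 0.873. Its part in the lower level of CEP170 was not tested.

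CENPE, a kinesin that carries chromosomes to the spindle equator, had a 291-nt coding exon at chr4:103139789-103140079 (minus strand). DMSO libraries included it at 13.04%, 13.8%, 11.5% and 10.3%, and LMI070 libraries at 19.6%, 13.2%, 17.5% and 20.7%, with LMI070 replicate 14 inside the range of DMSO. The difference was 9.23 points in lane 7 and 1.93 in lane 8, and the adjusted p by edgeR was 0.915.

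The other exons at an unadjusted p under 0.05 had values near 100% by this measure. An AURKB exon of 149 nt (chr17:8206740-8206888, minus strand) stood at 98.5%, 98.4%, 97.4% and 98.5% in DMSO replicates 9 to 12 and at 100%, 99.6%, 99.0% and 98.2% in LMI070 replicates 13 to 16. The ranges overlapped, and the adjusted p by edgeR was 0.935. The other 2 forms of this exon, of 139 and 66 nt, share its skipping reads and 1 of its 2 inclusion junctions. Reads of that junction count for each form, so the value does not measure use of the 149-nt form alone. The differences of the other 2 forms were 0.47 and 1.01 points. A TOP2A exon of 158 nt (chr17:40407967-40408124, minus strand) stood at 99.9%, 99.5%, 99.6% and 99.8% in DMSO and at 99.8%, 100%, 100% and 99.9% in LMI070. These ranges overlapped too, and the adjusted p by edgeR was also 0.935.

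**Figure D4:**
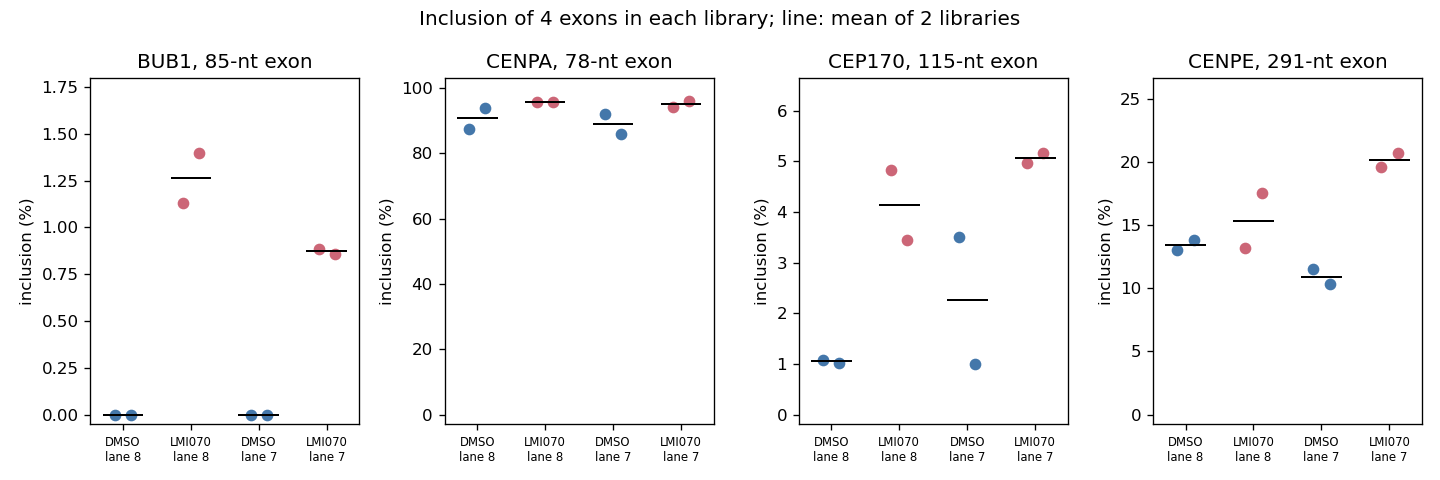
Inclusion in percent of exons of BUB1, CENPA, CEP170 and CENPE, each on its own axis from 0, with 1 point per library (DMSO blue, LMI070 red) and a line at the mean of the 2 libraries of each lane and treatment. The BUB1 exon is at 0 in every DMSO library and between 0.858% and 1.40% in LMI070; for CENPE the LMI070 libraries are higher in lane 7, at 19.6% and 20.7%, than in lane 8.

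From other work LMI070 is known to hold U1 snRNP at weak 5′ splice sites that follow the letters GA, often AGA, at the end of an exon. The ends of the exons just described are therefore printed where a transcript sequence was at hand, with the last 3 bases in capitals. The CENPA exon is shown whole (plus strand), and the last 30 bases are shown for CEP170 (chr1:243176702-243176731), CENPE (chr4:103139789-103139818), TOP2A (chr17:40407967-40407996) and the 139-nt form of the AURKB exon (chr17:8206750-8206779), all on the minus strand.
CENPA: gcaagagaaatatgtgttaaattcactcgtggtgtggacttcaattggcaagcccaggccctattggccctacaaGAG
CEP170: tgcagtggctagccaagtagcctgtggAGA
CENPE: atagcaaccttaagggaaatgatagctAGA
TOP2A: ctcaatgttcgagaagcttctcataagCAG
AURKB: tgcacatttgacgagcagcgaacagccACG
CEP170 and CENPE end in AGA, and CENPA, TOP2A and AURKB end in GAG, CAG and ACG, so 2 of the 5 have GA at the end. Of 88 exons of the 38 genes with a transcript sequence, 3 end in GA, or 3.41%, and the third is an exon of NUF2 that ends in TGA. Of all 18758 tested exons with a sequence, 1.85% end in GA and 0.858% in AGA.

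Alternative exons that both groups use were examined for a shift of any size. Exons were kept where the weaker inclusion junction reached 20% of the reads on the stronger one, and 28 of these, in 17 genes, stood between 5% and 95% inclusion in DMSO. Their differences ran from -6.50 to 5.58 points, with a median absolute difference of 1.43 points. The lowest was a 151-nt exon of UBE2C, with 39.3% ± 9.96 for DMSO and 32.8% ± 7.66 for LMI070 (SD, n = 4 per group), -13.2 points in lane 7 and 0.21 in lane 8. A 123-nt exon of CDC25B went from 76.0% ± 6.74 to 70.8% ± 4.33, with -4.48 and -5.97 points in lanes 7 and 8. An exon of 110 nt in AURKA went from 43.0% ± 3.70 to 38.3% ± 4.18, with -5.07 and -4.37 points. None of these passed.

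Alternative exons of the cytokinesis genes included 3 annotated ones with differences of under 2 points. KIF23, the motor of the central spindle, had 312 nt of alternative sequence at 30.6% ± 2.15 in DMSO and 29.4% ± 0.738 in LMI070. Anillin, the product of ANLN, had a 111-nt exon at 72.7% ± 1.28 and 71.0% ± 1.07. PRC1 had a 42-nt exon at 42.2% ± 3.22 and 43.8% ± 2.78 (SD, n = 4 per group for each value). KIF14 had a 123-nt exon absent from the annotation, which DMSO libraries used at 12.6% ± 3.34 and LMI070 libraries at 16.4% ± 2.47. Its difference of 3.74 points was larger than the median of the 28 exons, at 4.39 points in lane 7 and 3.09 in lane 8, and did not pass.

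**Figure D5:**
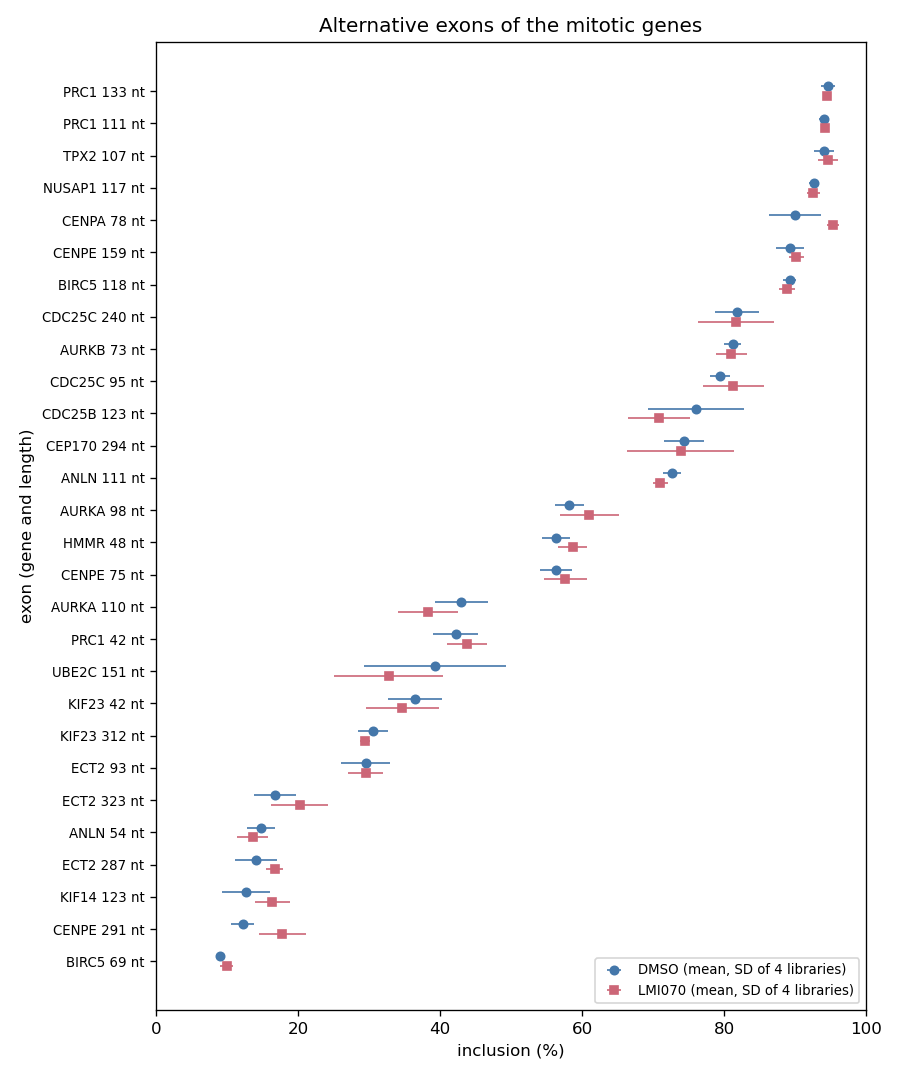
Mean inclusion in percent, with the SD over 4 libraries as a bar, of 28 alternative exons of 17 mitotic genes in DMSO (circles) and LMI070 (squares), in order of inclusion in DMSO. The pairs lie close together along the whole axis, with the widest gaps at UBE2C (39.3% and 32.8%), CENPE (12.2% and 17.7%) and CENPA (89.9% and 95.4%).

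Junction usage, the reads of a junction as a percent of all reads at its splice sites, was tested for 711 junctions of the 38 genes, 61 of them unannotated. None passed (0 by edgeR, 27 at an unadjusted p under 0.05, 0 by DESeq2 with 12 unadjusted), against 0.144% of 129500 junctions tested; at an unadjusted p under 0.05 the shares were 3.80% and 3.1%. The junctions with the smallest p were the neighbours of the exons given above. The BUB1 junction that skips the 85-nt exon (chr2:110638160-110639741) went from 99.8% ± 0.194 to 98.1% ± 0.561. The CENPA junction that skips the 78-nt exon (chr2:26792241-26793144) went from 5.31% ± 2.01 to 2.36% ± 0.420. All 4 LMI070 libraries lay below all 4 DMSO libraries, and the share of all junctions without overlap was not counted. The CENPA junctions on either side of that exon went from 87.3% ± 4.67 to 93.7% ± 1.26 (chr2:26792241-26792755) and from 90.2% ± 4.22 to 95.3% ± 1.67 (chr2:26792834-26793144; SD, n = 4 per group for each value).

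The CDC25B junction at chr20:3798464-3800287 was used in 100% of reads at its sites in all 4 DMSO libraries and in 97.9%, 97.4%, 97.3% and 99.3% in LMI070 replicates 13 to 16. Every LMI070 library was thus lower, with an adjusted p by edgeR of 0.734, and the share of all junctions with this pattern was not counted. The DMSO value rests on 455 reads, which allows other use of up to 0.659%. The other junction of the 6 with the smallest p was one of BUB1B (chr15:40176674-40183713), with 97.4% ± 0.297 for DMSO and 99.4% ± 0.901 for LMI070 (SD, n = 4 per group).

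The 38 genes held 1137 unannotated junctions that touch 1 of their annotated splice sites. Of these, 582 were seen in 1 library only and 50 in all 8. The most read was a CENPE junction (chr4:103138450-103140255), the one that skips the 291-nt exon, at 52.8% ± 2.92 of the reads at its sites in DMSO and 49.5% ± 4.70 in LMI070. A junction of ANLN (chr7:36419468-36420168) stood at 11.1% ± 2.40 and 8.67% ± 0.964. In TPX2, the activator of Aurora A, a junction at chr20:31797516-31798385 stood at 7.12% ± 0.262 and 7.53% ± 1.11, and one at chr20:31739622-31757406 at 3.05% ± 0.755 and 2.74% ± 0.709. A PRC1 junction (chr15:90966654-90969446) stood at 4.40% ± 0.506 and 3.64% ± 0.464, and a further CENPE junction (chr4:103141909-103144330) at 5.68% ± 1.15 and 5.18% ± 0.607 (SD, n = 4 per group for each value, DMSO first). None of the 6 had an unadjusted p under 0.05, and all 6 were used in both groups.

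Junctions found in 1 group only were few. In the 38 genes 3 unannotated junctions were seen in all 4 LMI070 libraries and in no DMSO library, or 0.264%, against 0.131% over all genes, and none was seen in all 4 DMSO libraries and no LMI070 library, against 0.0609% over all genes. The first is the BUB1 junction into its 85-nt exon, with 3, 3, 2 and 4 reads in replicates 13 to 16. The second leaves the CDC25B splice site given above (chr20:3798464-3798872), with 4, 1, 3 and 1 reads. The third lies in CDC25C (chr5:138328530-138331594), with 1 read in each library. Counts this low give no measure of size.

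The share of a gene's reads in unannotated junctions was tested for 37 of the 38 genes; NUSAP1 had too few such reads. None passed (0 by edgeR, 3 at an unadjusted p under 0.05, 0 by DESeq2 with 0 unadjusted), against 0.248% of 10884 genes, and 8.11% against 5.3% had an unadjusted p under 0.05. CEP170 went from 0.211% ± 0.140 to 0.431% ± 0.0774, AURKA from 0.483% ± 0.0580 to 0.742% ± 0.262 and BUB1B from 0.773% ± 0.155 to 0.516% ± 0.115 (SD, n = 4 per group). LMI070 replicate 16 was the highest of AURKA, at 1.07%, and DMSO replicate 12 the highest of BUB1B, at 0.988%. No exon, junction or unannotated share of the 38 genes was called by lane.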

How the data were processed

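Per the submitters' processing notes, STAR 2.6.0c and the GRCh38 build were used for alignment. Alignment settings and the annotation used there are not given in the sources used here. The libraries were stranded, per the labels' protocols. The deposited tables, 1 a library, list for each splice junction the raw counts of spanning reads that map to 1 place and to several, and hold no reads within exons.

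Uniquely mapped counts over introns of a single GENCODE 29 gene were summed per gene. The test was edgeR's quasi-likelihood F test (edgeR 4.0.16 under R 4.3.3) with TMM scaling, edgeR's expression filter, lane and treatment, and Benjamini-Hochberg adjustment over all genes at 0.05. Interaction and single-lane fits followed. Exons of 3 to 500 nt needed at least 10 inclusion and 10 skipping reads, and junctions 20 reads, with 10 reads in each library. Forms of an exon with the same 5′ splice site were counted once. Paired counts were fitted with a coefficient per library. Standard errors of log2 fold changes come from the F statistic. Alternatives included DESeq2 1.42.0, other scaling, filters and reads, and each library left out. The tests were also run on simulated data.

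By the naming rule, values were given for genes called by treatment or lane, for the 6 exons and 6 junctions with the smallest p and for the 6 most-read unannotated junctions; the 4 interaction genes, UBE2C, BIRC5, CKAP5, AURKB, NDC80, TTK and other examples were chosen after their values were seen. The 38 genes and the wider lists were chosen with earlier results of these data known.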

Additional observations from a re-analysis of the deposited data

Results flagged for a closer look

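The treatment difference was unequal between lanes for 4 of the 38 genes, by edgeR's test of the interaction with Benjamini-Hochberg adjustment over all genes. The difference of log2 fold changes, lane 7 minus lane 8, was 0.423 for MKI67 (adjusted p 0.0020), 0.372 for PLK1 (0.0116), 0.344 for CDC25B (0.0266) and -0.321 for CDK1 (0.0093), and in each case both LMI070 libraries of lane 7 lay outside the range of the other 6 libraries.

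Single libraries stood apart from the other 3 of their group in 3 of the 76 groups of 4 that were examined; chance marks about 1 group in 20. DMSO replicate 12 was far above the other DMSO libraries for TOP2A, at 2039 CPM against a median of 1883, and for CDC25C, at 80.9 CPM against 73.9. LMI070 replicate 13 was below the other LMI070 libraries for BUB1, at 381 CPM against 390.0.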

How the results depend on the processing

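No paired analysis was possible because DMSO and LMI070 libraries share no replicate number. The count of genes called lower by treatment (1, CEP170) was 0 with multiply mapped reads, 0 without DMSO replicate 12 and LMI070 replicate 16 together, 0 with no lane term, 2 in lane 7 alone and 0 in each fit that left out 1 library. The CEP170 adjusted p by edgeR or DESeq2 over all alternatives ran from 0.000801 to 0.225. The count of genes called higher (0) was 2 with no low-count filter (MKI67 and PLK1) and 3 in lane 7 alone. The count called by lane (0) was 1 with DESeq2 (UBE2C), 2 with no low-count filter (MKI67 and UBE2C) and 0 to 1 with 1 library left out: MKI67 without DMSO replicate 11 and UBE2C without DMSO replicate 12. The interaction count (4, with 2.85% of all genes) was 9 without DMSO replicate 12 and LMI070 replicate 16 together, where 6.59% of all genes were called, and 1 to 10 with 1 library left out. It was 10 without DMSO replicate 11 (11.8% of all genes), 2 without LMI070 replicate 14 (1.26%), and 1, MKI67, without DMSO replicate 9 or 10 or LMI070 replicate 13 or 15 (1.13% to 1.71%). Single-library arms in these fits are assumed to vary like the others. The cause was not tested in any of these. Counting shared introns, and every alternative for the interaction, were added after the data were seen. No called value changed direction, and exons, junctions and unannotated shares had 0 calls in each alternative. Depth limits low-use junctions most: the BUB1 exon rests on 8 and 12 reads of its junctions.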
